A study of Mus musculus with 5 samples.

Results

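The genes for making, storing, taking up and breaking down catecholamines were followed in sorted sympathetic neurons of mouse embryos. The embryos had a conditional deletion of *Hif1a* (*Hif1aCKO*) or were controls. The 9 genes were chosen by name and function, with earlier results of these data known, and were matched through their Ensembl identifiers to 9 of the 20224 genes counted. All 9 passed the filter on low counts and were among the 15032 genes tested. By fold change 8 of the 9 genes were lower in the *Hif1aCKO* than in the control libraries, where 48.7% of all genes tested were lower. The differences were largest in *Th* and in *Pnmt*, a gene with few reads, while the groups overlapped for *Gch1* and *Slc18a1*. With 2 control and 3 *Hif1aCKO* libraries, none of these differences passed the correction for all genes tested. Control replicate 6 was the highest library for 7 of the 9 genes.

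Neurons came from the sympathetic ganglia of E14.5 embryos and were counted by RNA sequencing in pools of 100 sorted cells. The 3 *Hif1aCKO* libraries (replicates 3, 4 and 5) carried *Hif1a loxP/loxP*, in which exon 2 of both alleles can be removed, together with *Isl1-Cre*, the *Rosa-CAG-LSL-tdTomato* reporter Ai14 and *Prph-eGFP*. The 2 control libraries (replicates 5 and 6) carried *Hif1a loxP/+* with the same *Isl1-Cre*, Ai14 and *Prph-eGFP* alleles, so both groups had 1 *Isl1* allele replaced by *Cre* and the controls could also lose 1 *Hif1a* allele. The labels also describe controls that lack *Isl1-Cre*, but cells were sorted for tdTomato, which needs Cre. The floxed line was on a mixed C57BL/6J and C57BL/6N background, and *Isl1-Cre* mice were on FVB. Cre from the *Isl1* locus is also active in other cells that express *Isl1*, such as sensory and motor neurons, and peripherin is likewise found in other peripheral neurons. Each library is described as 1 biological sample, and the numbers of embryos given, 3 *Hif1aCKO* and 2 control, equal those of the libraries. All embryos came from non-diabetic pregnancies.

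Sympathetic neurons make noradrenaline from tyrosine. Tyrosine hydroxylase takes the rate-limiting step with the cofactor tetrahydrobiopterin, aromatic amino acid decarboxylase turns DOPA into dopamine, and dopamine is carried into vesicles, where dopamine beta-hydroxylase makes noradrenaline. The released transmitter is taken back up by the noradrenaline transporter, and what is not stored again is broken down by monoamine oxidase. Conversion to adrenaline belongs mainly to chromaffin cells of the adrenal medulla, which share their progenitor with sympathetic neurons.

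The files hold raw counts of reads on each gene. Totals ranged from 8254211 to 9700887 counts per library. Below, a normalized count is the count divided by the library's effective size, which corrects for depth and composition, and scaled to the mean effective size of 8747702 counts. *Hif1a* itself (ENSMUSG00000021109) had normalized counts of 2086 and 1584 in the controls and 2747, 1757 and 2135 in *Hif1aCKO* replicates 3, 4 and 5. These counts cover every exon of the gene and could not show the loss of exon 2. The labelled cell type was checked with 10 sympathetic neuron markers, all of which had at least 10 counts in every library, among them *Gata3*, *Hand2*, *Isl1* and *Prph*. The sort itself used reporters that depend on *Isl1-Cre* and on *Prph-eGFP*, so counts of *Isl1* and *Prph* cannot check the cell type. The defining sensory neuron gene *Pou4f1* had at most 5.21 normalized counts in any library. Of the Schwann cell precursor markers, *Fabp7* stood at 993 in *Hif1aCKO* replicate 3 and at most 8.76 elsewhere, and *Erbb3* at 53.6 in the same library and at most 2.08 elsewhere. Not every marker was among the genes counted. The 4 of 8 mesenchyme markers that were counted summed to at most 24.3 normalized counts, and 2 of 4 endothelium markers to at most 38.0. Of the sensory list 5 of 9 markers were counted and summed to between 441 and 844, nearly all of it *Ntrk3*. Of the motor neuron list 2 of 5 were counted, *Foxp1* and *Slit2*, which summed to between 2975 and 4407.

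Levels of different genes were compared as CPM per kilobase of exon, that is, counts scaled to 1000000 per library and divided by the length of all exons, averaged over the 5 libraries. *Dbh*, the vesicular enzyme that makes noradrenaline, had the highest level of the 9 genes at 242 ± 33.4 (SD, n = 5 libraries) and ranked 173 of the 15032 genes tested. *Maoa*, the mitochondrial monoamine oxidase A, followed at 197 ± 48.0, *Th* at 152 ± 108, *Ddc*, the decarboxylase, at 109 ± 15.8, and *Slc18a2*, the neuronal vesicular monoamine transporter VMAT2, at 94.9 ± 26.5. The ranges of neighbours among these 5 genes overlapped. *Dbh* was above *Maoa* in all 5 libraries, whereas *Th* was above *Ddc* in only 3 of 5. These 5 genes lay above at least 95.8% of the genes tested.

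A gap of 3.62-fold separated *Slc18a2* from the next gene, *Slc6a2*, the noradrenaline transporter, at 26.2 ± 3.86 CPM per kilobase of exon. *Slc18a1*, the vesicular transporter VMAT1 that is typical of endocrine cells, had a level of 15.7 ± 1.64, and *Gch1*, which starts the synthesis of tetrahydrobiopterin, 12.3 ± 0.924. *Slc18a1* was above *Gch1* in all 5 libraries, although their ranges overlapped. *Pnmt*, the enzyme that makes adrenaline, was lowest at 2.22 ± 1.85, with 28 and 55 reads counted in the controls and 17, 3 and 11 in the *Hif1aCKO* libraries. The order depended on the length used. With the longest annotated transcript in place of all exons, 4 of the 9 genes kept their rank, *Ddc* came second at 240.3, and *Slc18a1* moved above *Slc6a2*.

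**Figure D1:**
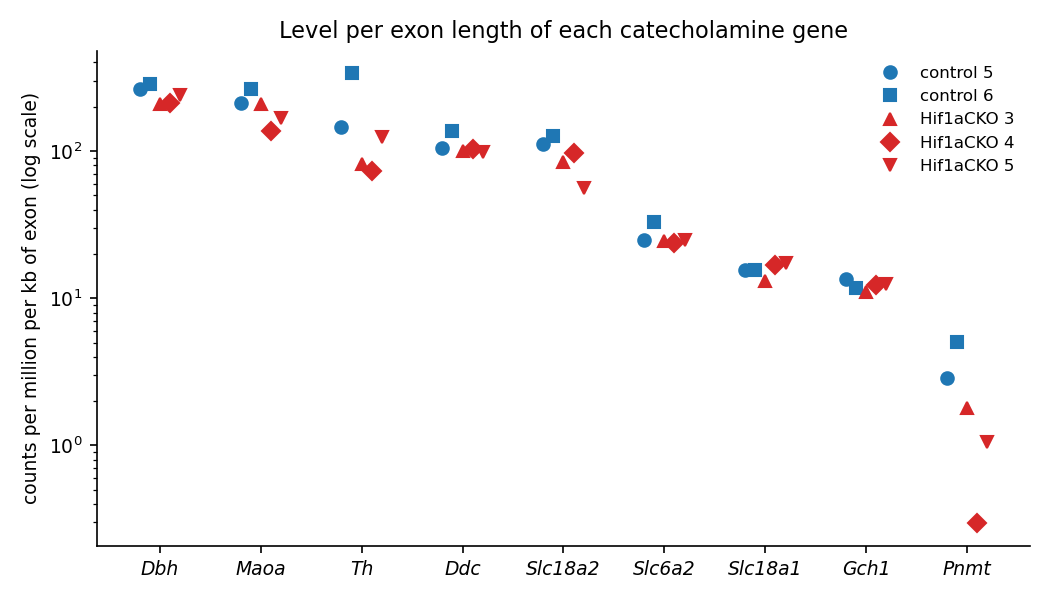
Level of each of the 9 genes in each library, in CPM per kilobase of exon on a log scale, ordered by the mean over the 5 libraries (blue, control; red, *Hif1aCKO*; shapes mark replicates). *Dbh*, *Maoa*, *Th*, *Ddc* and *Slc18a2* form an upper group with overlapping ranges, and *Pnmt* lies lowest with a level of 0.297 in *Hif1aCKO* replicate 4.

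The question of the comparison was what loss of *Hif1a* changes in developing sympathetic neurons, and it was tested with the quasi-likelihood test of edgeR over all 15032 genes. Calls needed an adjusted p-value (Benjamini-Hochberg) under 0.05, a log2 fold change beyond 0.3 in either direction, and 50 or more normalized counts on average. By this rule 0 of the 9 genes were called, as were 0% of all genes tested. At an unadjusted p-value under 0.05, 4 of the 9 genes were lower in *Hif1aCKO* neurons and 0 higher, where 3.85% of all genes tested were lower and 3.83% higher at that threshold. For 7 of the 9 genes each *Hif1aCKO* library lay below both control libraries, and for 0 genes each lay above both. Over all genes tested these shares were 12.9% below and 12.9% above. The median log2 fold change of the 9 genes was -0.32, against 0.012 over all genes tested. In bulk libraries of sorted cells, fewer cells that express a gene and less of its RNA per cell cannot be told apart.

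Control replicate 6 was the highest library for 7 of the 9 genes, where it was the highest for 20.5% of all genes tested. Without this library 1 control was left, and genes with an unadjusted p-value under 0.05 became fewer, among the 9 and over all genes tested. The log2 fold change of *Th* was then -0.64 and the median of the 9 genes -0.28. Without *Hif1aCKO* replicate 4 the number among the 9 genes went from 4 to 2. In that fit 434 of the 14548 genes tested were higher at this threshold and 546 lower. DESeq2, the tool of the study, called 0 of the 9 genes, and 0.388% of the genes to which it gave an adjusted p-value. The likelihood ratio test of edgeR called 1 of the 9 genes, *Th*, where it called 0.166% of all genes tested as lower. Over these libraries, exact permutation of the group labels for 1 gene cannot give a two-sided p-value below 0.1.

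**Figure D2:**
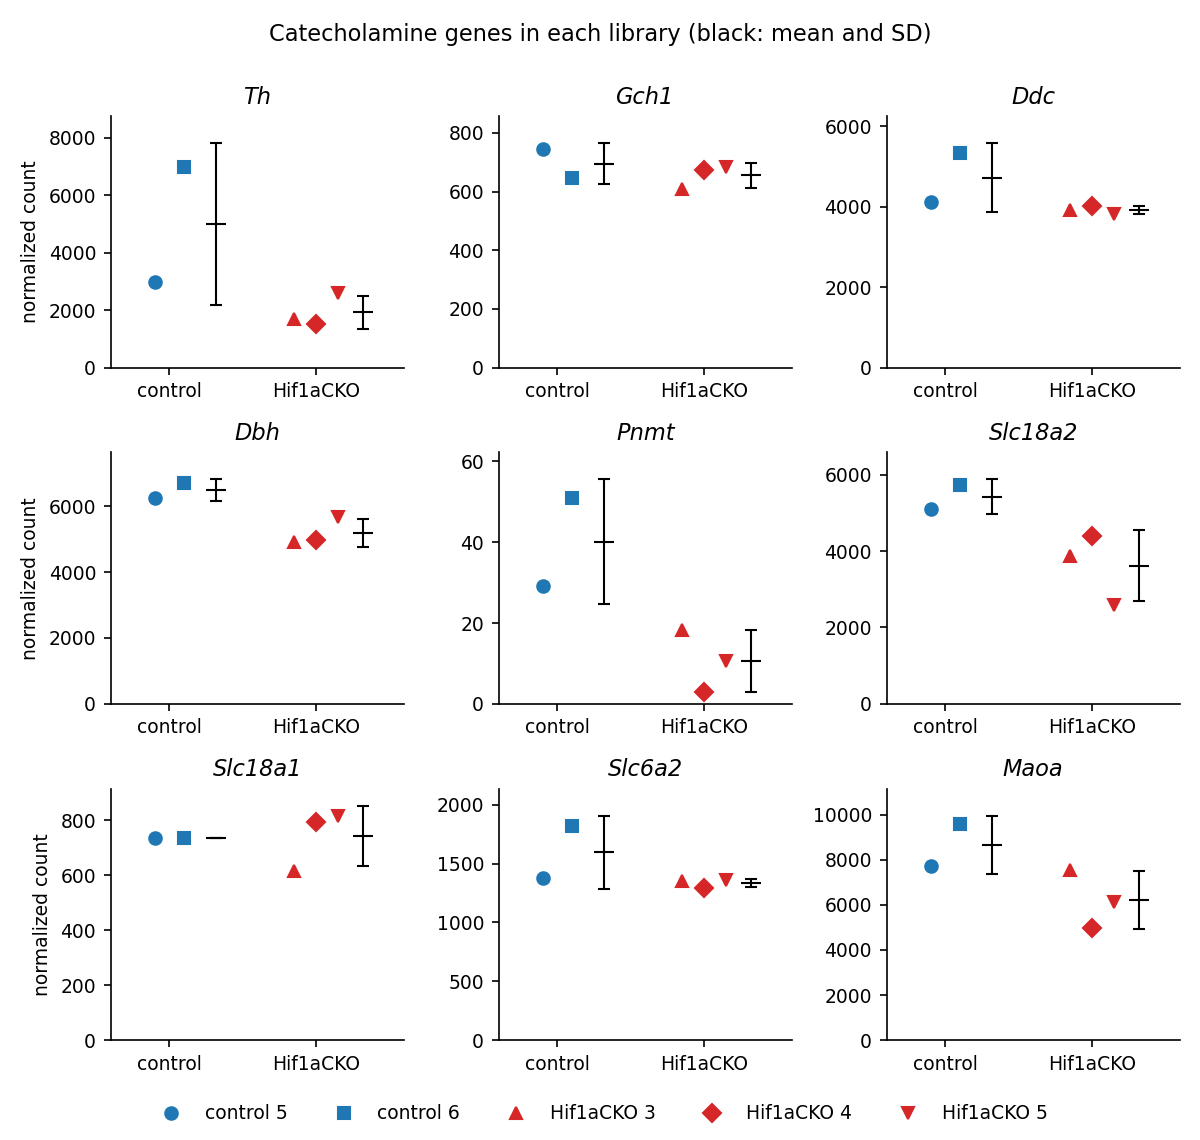
Normalized counts of the 9 genes in each library, each panel with its own axis from 0 (blue, control; red, *Hif1aCKO*; black, mean and SD of 2 or 3 libraries). All red points lie below both blue points for *Th*, *Ddc*, *Dbh*, *Pnmt*, *Slc18a2*, *Slc6a2* and *Maoa*, but not for *Gch1* and *Slc18a1*.

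*Th* (ENSMUSG00000000214, GRCm38 chromosome 7, 142892752 to 142931128, minus strand), which encodes tyrosine hydroxylase, differed most among the abundant genes. Control replicate 5 had 2998 normalized counts of *Th* and control replicate 6 had 6985, against 1682, 1515 and 2582 for *Hif1aCKO* replicates 3, 4 and 5. The groups did not overlap, but the controls differed by 2.33-fold from each other, and control replicate 5 lay much nearer to the *Hif1aCKO* libraries than to the other control. The means were 4991 ± 2820 (SD, n = 2) and 1927 ± 574 (SD, n = 3). The level in *Hif1aCKO* was 61.4% lower, and the log2 fold change was -1.37 (standard error 0.35, 95% interval -2.17 to -0.58, unadjusted p = 0.00404 and adjusted p = 0.586 in the edgeR fit). Adjusted p-values over the alternatives ran from 0.0467 in the likelihood ratio test to 0.999. Without control replicate 6 the log2 fold change was -0.64, that is 1.56-fold lower instead of 2.59-fold. The exact two-sided permutation test of *Th* gave p = 0.1, the smallest these group sizes allow.

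Upstream sequence is shown for *Th* and *Slc18a2*, the only 2 of the 6 genes with a RefSeq promoter (GRCm38.p6) that held the cyclic AMP response element in the window from 250 bases before to 50 after the start. The other 4 were *Ddc*, with 2 starts, *Dbh*, *Gch1* and *Maoa*. *Pnmt*, *Slc18a1* and *Slc6a2* were not looked up elsewhere. The sequences run 5′ to 3′ on the strand of the gene and end before annotated exon sequence, except that the last 4 bases of *Slc18a2* lie past its RefSeq start, where the element crosses it. Capitals mark the cyclic AMP response element TGACGTCA and, in *Th*, the AP-1 type motif TGANTCA and the core of the hypoxia response element in its form GCGTG.
Th, chr7:142900015-142900245, minus strand: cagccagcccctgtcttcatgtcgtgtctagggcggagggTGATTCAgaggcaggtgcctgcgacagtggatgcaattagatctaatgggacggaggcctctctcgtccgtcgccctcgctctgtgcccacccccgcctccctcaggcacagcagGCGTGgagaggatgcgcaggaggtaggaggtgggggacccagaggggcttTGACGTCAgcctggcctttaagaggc
Slc18a2, chr19:59260628-59260881, plus strand: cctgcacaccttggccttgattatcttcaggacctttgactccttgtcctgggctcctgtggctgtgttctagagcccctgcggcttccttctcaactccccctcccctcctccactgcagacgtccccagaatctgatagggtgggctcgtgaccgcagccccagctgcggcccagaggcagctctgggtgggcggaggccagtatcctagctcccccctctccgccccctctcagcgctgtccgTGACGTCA

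In *Th* the cyclic AMP response element began 45 bases, the hypoxia response core 95 bases and the AP-1 motif 210 bases before the RefSeq start. In *Slc18a2* the element began 4 bases before it. Among all 32817 promoter windows of the table, 1.79% held TGACGTCA on either strand, 7.81% TGANTCA, and 43.8% the hypoxia response core as ACGTG or GCGTG. Of the 6 genes, 2 held that core, *Th* and the upstream start of *Ddc*, both as GCGTG. These are matches of letters, and no binding was measured.

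Of the other genes of synthesis, *Dbh* (ENSMUSG00000000889, chromosome 2, 27165233 to 27183200) had normalized counts of 6253 and 6713 in the controls and 4923, 4967 and 5667 in *Hif1aCKO* replicates 3 to 5. The 2 controls lay close together, and each *Hif1aCKO* library lay below them. The level was 20.0% lower, a log2 fold change of -0.32 (95% interval -0.59 to -0.053, unadjusted p = 0.0245 and adjusted p = 0.621 in the edgeR fit). Its standard error of 0.12 was the smallest of the 9 genes, and with each library left out in turn its log2 fold change stayed between -0.39 and -0.28.

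*Ddc* (ENSMUSG00000020182, chromosome 11, 11814101 to 11898144) had 4110 and 5327 normalized counts in the controls and 3917, 4028 and 3826 in *Hif1aCKO* replicates 3 to 5. The *Hif1aCKO* libraries were tightly grouped, just under control replicate 5. The log2 fold change was -0.27 (95% interval -0.59 to 0.054, unadjusted p = 0.0915) and was -0.073 without control replicate 6.

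*Gch1* (ENSMUSG00000037580, chromosome 14, 47153895 to 47189413), the source of the cofactor that *Th* needs, had 745 and 646 normalized counts in the controls and 608, 675 and 685 in *Hif1aCKO* replicates 3 to 5. The groups overlapped, and the log2 fold change was -0.084 with a 95% interval from -0.48 to 0.31. A decrease in *Gch1* as large as that estimated for *Th* from all libraries lies outside this interval. The difference between the fold changes of *Gch1* and *Th* was not tested.

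*Pnmt* (ENSMUSG00000038216, chromosome 11, 98386450 to 98388181) had 29.2 and 51.0 normalized counts in the controls and 18.2, 3.00 and 10.7 in *Hif1aCKO* replicates 3 to 5. Both controls were above the other libraries, but a few reads decide these values. The log2 fold change of -1.91 had a 95% interval from -3.97 to 0.16 and an unadjusted p of 0.0659 from edgeR. Its mean of 22.4 normalized counts was below the threshold of 50 set for a call.

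The vesicular transporters are described in turn. *Slc18a2* (ENSMUSG00000025094, chromosome 19, 59260896 to 59296012) had 5095 and 5742 normalized counts in the controls and 3870, 4401 and 2582 in *Hif1aCKO* replicates 3 to 5. Each *Hif1aCKO* library was below both controls, and replicate 5 was the lowest by a wide margin. The level was 33.2% lower, a log2 fold change of -0.58 (standard error 0.21, 95% interval -1.07 to -0.10, unadjusted p = 0.0237 and adjusted p = 0.621 in the edgeR fit). Without *Hif1aCKO* replicate 5 the log2 fold change was -0.39. The antisense gene *Gm29261* covers 2.12% of the exonic bases of *Slc18a2*, and reads were counted without regard to strand, so that reads of the pair cannot be told apart there. The other 8 genes share no exonic base with another annotated gene.

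*Slc18a1* (ENSMUSG00000036330, chromosome 8, 69037711 to 69089235) had 736 normalized counts in each control and 617, 795 and 816 in *Hif1aCKO* replicates 3 to 5. The *Hif1aCKO* libraries lay on both sides of the controls, and the log2 fold change of 0.012 had a 95% interval from -0.41 to 0.44. The ratio of *Slc18a1* to *Slc18a2*, per kilobase of exon, was 0.140 and 0.124 in the controls and 0.154, 0.175 and 0.306 in *Hif1aCKO* replicates 3 to 5. This ratio was thus higher in each *Hif1aCKO* library, most of all in replicate 5, where *Slc18a2* was lowest. The difference between the 2 fold changes was not tested.

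*Slc6a2* (ENSMUSG00000055368, chromosome 8, 92960079 to 93001667), through which released noradrenaline returns to the neuron, had 1375 and 1817 normalized counts in the controls and 1355, 1297 and 1361 in *Hif1aCKO* replicates 3 to 5. Control replicate 5 lay barely above the *Hif1aCKO* libraries, and control replicate 6 apart from all of them. The log2 fold change was -0.25 (95% interval -0.64 to 0.13, unadjusted p = 0.162) and was -0.045 without control replicate 6. Over the 5 libraries *Slc6a2* and *Ddc* had the most similar course of any pair of the 9 genes, with a root mean square difference of 0.048 between their centred log2 levels.

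*Maoa* (ENSMUSG00000025037, chromosome X, 16619698 to 16687818) had 7749 and 9586 normalized counts in the controls and 7556, 4967 and 6128 in *Hif1aCKO* replicates 3 to 5. *Hif1aCKO* replicate 3 almost reached control replicate 5. The level was 28.3% lower, a log2 fold change of -0.48 (standard error 0.18, 95% interval -0.89 to -0.065, unadjusted p = 0.0284 and adjusted p = 0.621 in the edgeR fit). *Maoa* is X-linked, and *Xist*, the RNA that coats the inactive X chromosome of females, was counted 3974 times for control replicate 5, 4597 times for *Hif1aCKO* replicate 3 and at most 3 times elsewhere. Between the 2 libraries with *Xist* the log2 ratio of *Maoa* was -0.036, and among the 3 without it the log2 fold change was -0.79. With the *Xist* class of the library as a term in the fit, the log2 fold change of *Maoa* was -0.47. The same comparison gave *Th* -0.83 and -1.77, *Dbh* -0.35 and -0.34, and *Slc18a2* -0.40 and -0.72 for the libraries with and without *Xist*. The first value of each gene rests on 1 library a group and has no test. The second rests on 1 control, replicate 6, and on *Hif1aCKO* replicates 4 and 5, so *Xist* class also separates the controls from each other.

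**Figure D3:**
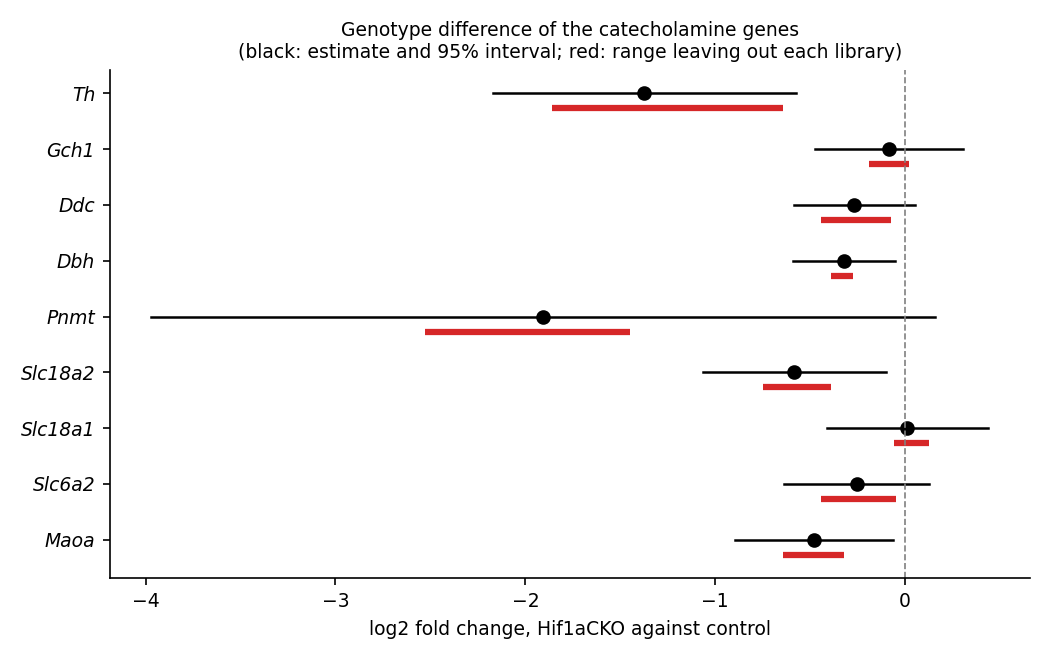
Log2 fold change of each of the 9 genes in *Hif1aCKO* against control neurons, with its 95% interval (black) and the range of estimates with single libraries omitted (red). The intervals of *Th*, *Dbh*, *Slc18a2* and *Maoa* lie below 0, and the red range of *Th* is wide, from -1.86 to -0.64.

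The genes did not keep a fixed proportion to each other. Per kilobase of exon the ratio of *Th* to *Dbh* was 0.546 and 1.185 in the controls and 0.389, 0.347 and 0.519 in *Hif1aCKO* replicates 3 to 5. The ratio was lower in each *Hif1aCKO* library, while control replicate 5 and *Hif1aCKO* replicate 5 had nearly equal ratios. For *Ddc* to *Dbh* it lay between 0.397 and 0.489 in all 5 libraries, and the groups overlapped.

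The course of *Th* over the libraries was compared with that of 10841 other genes that had a mean normalized count of at least 50, by the root mean square difference of centred log2 levels. The nearest were *Rnf128*, a ubiquitin ligase, at 0.218, the unnamed gene *Gm26658* at 0.237, *Tcn2*, a carrier of vitamin B12, at 0.257, *Mcf2*, a guanine nucleotide exchange factor, at 0.279, and *Slc18a3*, the vesicular acetylcholine transporter, at 0.279. All of these were highest in control replicate 6, like *Th*, which follows from their choice by nearness to *Th*. Normalized counts of *Slc18a3* were 611 and 839 in the controls and 285, 266 and 524 in *Hif1aCKO* replicates 3 to 5. *Maoa* was the nearest of the abundant catecholamine genes and ranked 401 of the 10841 genes. The measure depends on the size of the changes between libraries as well as on their direction. The root mean square of the centred levels was 0.782 for *Th* and 0.323 for *Maoa*. A gene that changes less than *Th* therefore ranks low even where it moves the same way.

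Other genes of the pathway were taken from 7 lists of 57 genes, of which 41 were among the genes counted and 38 were tested. Of these, 19 were higher and 19 lower in *Hif1aCKO* neurons, and 0 were called by the quasi-likelihood test. At an unadjusted p-value under 0.05, 3 were higher and 4 lower, where 3.83% of all genes tested were higher and 3.85% lower. Without *Hif1aCKO* replicate 4 the 7 genes at this threshold became 3, where 434 of 14548 genes tested were higher and 546 lower. Without control replicate 6, with 1 control left, they were also fewer, as were such genes over all tested. DESeq2 called 2 of the genes, the transcription factors *Isl1* and *Gata2*, where it called 0.388% of the genes to which it gave an adjusted p-value. The study had already named *Gata2* as higher in these libraries, and found it higher by qRT-PCR of *Hif1aCKO* sympathetic chains.

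In the list of tetrahydrobiopterin genes, 8 were tested, 4 higher and 4 lower. *Qdpr*, the reductase that regenerates the cofactor, was the only one at an unadjusted p-value under 0.05. Its normalized counts were 2107 and 1976 in the controls and 1694, 1511 and 1603 in *Hif1aCKO* replicates 3 to 5, with groups that did not overlap and a log2 fold change of -0.35. *Pcbd1*, which recycles the cofactor before *Qdpr*, had a log2 fold change of -0.24 with overlapping groups.

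Dopamine beta-hydroxylase needs copper and ascorbate, and 5 genes of their supply were tested, 2 higher and 3 lower. *Cyb561*, the vesicle cytochrome that regenerates ascorbate, had 4128 and 5797 normalized counts in the controls and 3663, 3310 and 3929 in *Hif1aCKO* replicates 3 to 5. Each *Hif1aCKO* library lay below both controls, and the log2 fold change was -0.45 (unadjusted p = 0.0256 and adjusted p = 0.621 in the edgeR fit). The copper carriers *Slc31a1* and *Atox1* had log2 fold changes of -0.094 and 0.016.

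Among 6 other genes of breakdown, 4 were higher and 2 lower, and none had an unadjusted p-value under 0.05. *Maob*, the second monoamine oxidase, had 944 and 904 normalized counts in the controls and 739, 629 and 775 in *Hif1aCKO* replicates 3 to 5, a log2 fold change of -0.37 (unadjusted p = 0.0578). Its groups did not overlap, as for *Maoa*. *Akr1a1*, an aldehyde reductase, had a log2 fold change of -0.098.

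Of the amino acid hydroxylases and transporters for amino acids, 4 were tested. *Slc7a5*, the light chain of a carrier of large neutral amino acids such as tyrosine, was higher in each *Hif1aCKO* library, with 83.3 and 90.9 normalized counts in the controls against 143, 222 and 170 in replicates 3 to 5. Its log2 fold change was 1.03 (unadjusted p = 0.0152 and adjusted p = 0.618 in the edgeR fit). *Slc3a2*, its heavy chain, had a log2 fold change of -0.20.

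Of the other monoamine transporters 3 were tested, all 3 lower. *Slc6a4*, the serotonin transporter, had 54.2 and 59.4 normalized counts in the controls and 24.7, 5.99 and 0.973 in *Hif1aCKO* replicates 3 to 5, a log2 fold change of -2.42 with a 95% interval from -4.84 to -0.012. *Slc18b1* and *Slc29a4* had log2 fold changes of -0.49 and -0.035. The 4 adrenergic and dopamine receptors tested were scarce. Of the 14 receptors of the list 5 were among the genes counted. These summed to at most 105 normalized counts in any library, and none of the 4 tested reached an unadjusted p-value under 0.05. *Adra2c* and *Drd2* had log2 fold changes of 1.35 and -1.52, each with an interval that spans 0.

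All 8 transcription factors of the noradrenergic program were tested, and 5 were higher and 3 lower. Of these, 5 are also among the sympathetic neuron markers. *Isl1*, a LIM homeobox factor, had 12577 and 14019 normalized counts in the controls and 8634, 7800 and 8722 in *Hif1aCKO* replicates 3 to 5, a log2 fold change of -0.67 (unadjusted p = 1.9e-04 and adjusted p = 0.446 in the edgeR fit). *Gata2* and *Hand2* were higher in each *Hif1aCKO* library, with log2 fold changes of 0.89 and 0.59 and unadjusted p-values of 0.0013 and 0.0113 (adjusted p = 0.586 and 0.599 in the edgeR fit). DESeq2 gave adjusted p-values of 2.14e-04 for *Isl1*, 0.00324 for *Gata2* and 0.143 for *Hand2*, and the likelihood ratio test of edgeR gave 0.0311, 0.0249 and 0.291. Over all alternatives *Isl1* and *Gata2* passed the call rule in these 2 tests alone, and their adjusted p-values reached 0.999 without control replicate 6. *Gata3*, which had the highest level per kilobase of the list, had a log2 fold change of -0.17 with overlapping groups.

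**Figure D4:**
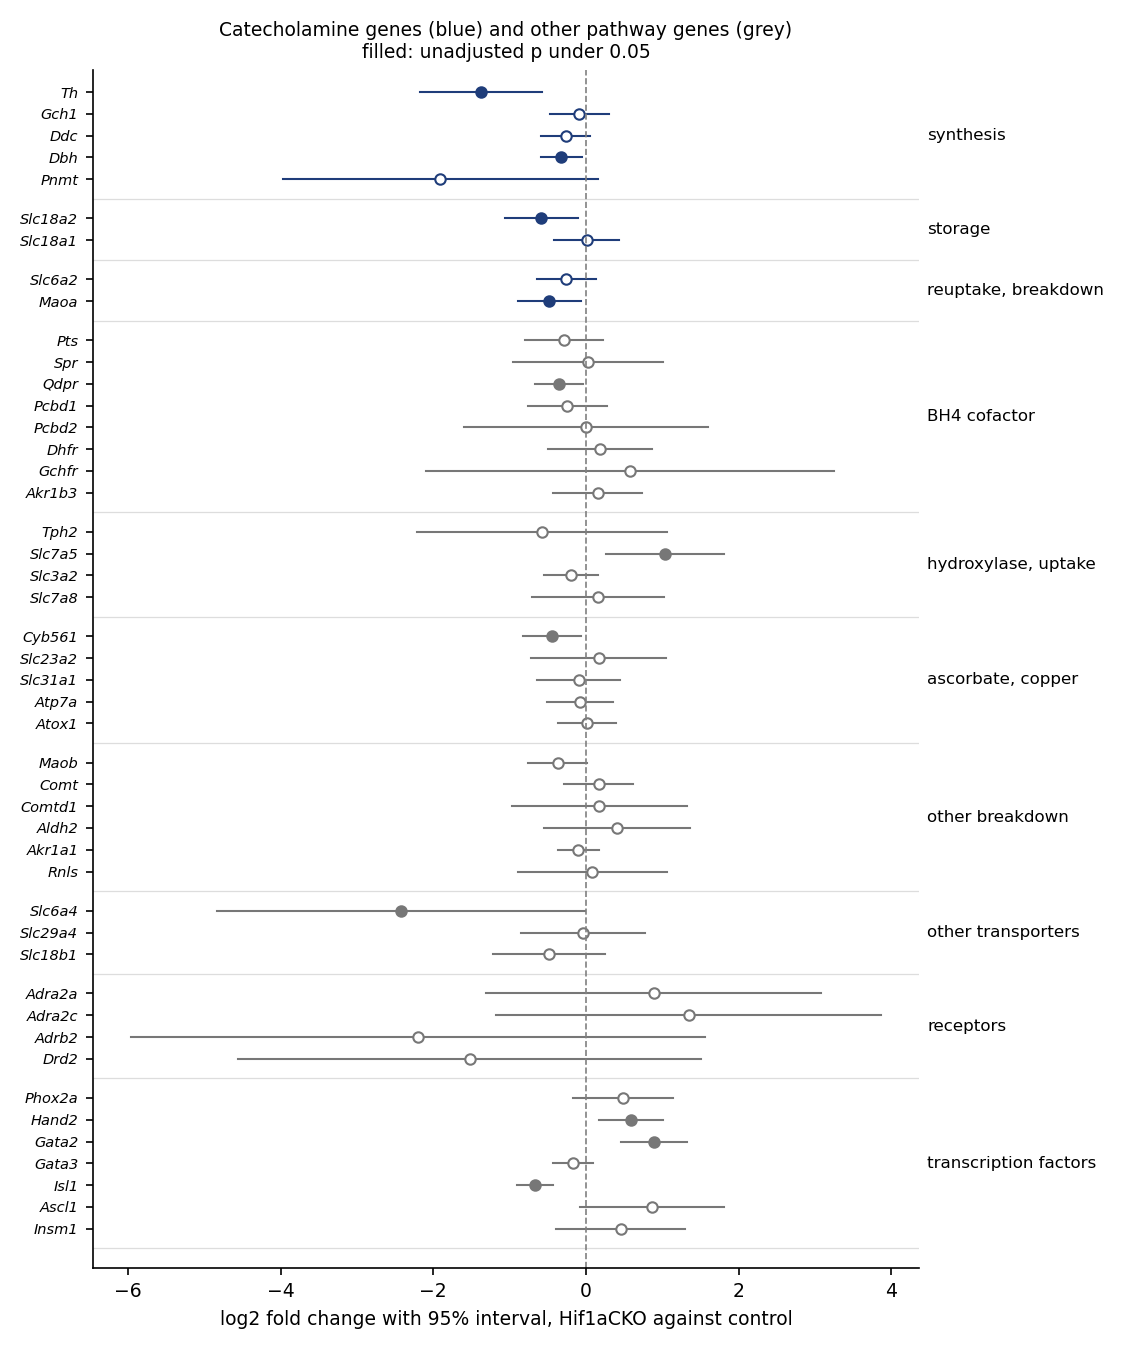
Log2 fold change with 95% interval of the 9 catecholamine genes (blue) and 37 other pathway genes tested (grey), grouped by role. Filled points have an unadjusted p-value under 0.05, which are 4 of the blue genes, all below 0, and 7 grey genes on both sides of 0.

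Markers of cycling cells moved with genotype in the same libraries. The 11 markers summed to between 18064 and 20208 normalized counts in the controls and between 27419 and 34988 in the *Hif1aCKO* libraries. All 11 were higher in each *Hif1aCKO* library than in both controls, where 12.9% of all genes tested were. The list was chosen with earlier results of these data known. The study had already named *Cdc20*, *Ccnb1*, *Kif23*, *Cenpf* and *Mki67* as higher in these libraries, so this count is not independent of them. The 10 sympathetic neuron markers summed to between 87054 and 102303 in the controls and between 76401 and 79460 in the *Hif1aCKO* libraries. Of these 10 markers 4 were higher and 6 lower, 1 and 3 of them at an unadjusted p-value under 0.05. The neuronal genes *Tubb3* and *Stmn2* had log2 fold changes of -0.39 and -0.30, while *Prph*, *Elavl4* and *Phox2a* had 0.15, 0.060 and 0.49. Markers of chromaffin cells, a list that includes *Pnmt*, *Slc18a1* and *Cyb561*, summed to between 22445 and 25567 in the controls and between 21774 and 28445 in the *Hif1aCKO* libraries. Within it *Cartpt* had a log2 fold change of 1.04, *Chgb* of -1.69 and *Chga* of 0.0077. Cholinergic markers, mainly *Slc18a3*, summed to between 685 and 944 in the controls and between 298 and 537 in the *Hif1aCKO* libraries. The part of these marker differences in the values of the catecholamine genes was not tested. The Schwann cell precursor markers were highest in *Hif1aCKO* replicate 3, at a sum of 1144, and without this library the log2 fold changes were -1.29 for *Th*, -0.29 for *Dbh*, -0.63 for *Slc18a2* and -0.64 for *Maoa*.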

How the data were processed

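The deposited counts were made by the authors, who trimmed reads with cutadapt 1.18 and Trimmomatic, removed ribosomal and vector reads with Bowtie 1.2.2 and SortMeRNA, mapped the rest to GRCm38 with STAR 2.7.0c, and counted uniquely mapped reads per gene with Rsubread. They are raw, and were counted with the default settings of Rsubread, which do not use strand. Symbols, positions and exon lengths came from GENCODE M21 (GRCm38; 20195 of 20224 identifiers matched), and promoters from RefSeq on GRCm38.p6.

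Libraries were grouped by genotype as labelled. Counts were tested in edgeR 4.0.16 (R 4.3.3) with filterByExpr, TMM factors and the quasi-likelihood test, with Benjamini-Hochberg adjustment over 15032 genes. Intervals are 95% intervals from the same fit. Patterns used log2(CPM + 0.5). The script was tested on simulated counts in which 200 genes were changed. The call rule recovered 49 of these at a 2-fold change and 166 at a 4-fold change, so most 2-fold changes were missed. No libraries were duplicates (chi-square over its degrees of freedom was 14.2 to 35.1 over the 10 pairs of libraries). DESeq2 1.42.0, limma-voom (limma 3.58.1), the likelihood ratio test, other normalizations, filters and thresholds, the *Xist* class, and leaving out each library were alternatives, and the 3 libraries with low *Xist* were added after the data were seen, as was the count at an unadjusted p-value. Libraries with over 100 *Xist* counts were classed high. The genes and lists were chosen with earlier results of these data known. Genes named beside the 9 were *Hif1a*, *Xist*, the pathway genes with an unadjusted p-value under 0.05, the 2 of each list with the highest level per kilobase and the 5 nearest to *Th*. *Pou4f1*, *Fabp7*, *Erbb3*, *Tubb3*, *Stmn2*, *Elavl4*, *Phox2a*, *Prph*, *Cartpt*, *Chgb*, *Chga*, *Ntrk3*, *Foxp1* and *Slit2* were named after their values were seen. Of the pathway genes tested, 1 is counted but not reported here. Tables and plots used Python 3.11.15, pandas 2.3.3, numpy 2.4.6 and matplotlib 3.10.9.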

Additional observations from a re-analysis of the deposited data

How the results depend on the processing

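No paired analysis was possible because the groups share only replicate number 5. The median log2 fold change of the 9 genes was -0.32 and stayed below 0 under all 14 alternatives. It moved by more than the spread between libraries without control replicate 5, to -0.44 (omitting single libraries gave -0.44 to -0.28), and among the 3 libraries with low *Xist*, to -0.45. The number of the 9 genes called was 0 under all settings except the likelihood ratio test of edgeR, where it was 1 (*Th*). Over all genes tested, the main test called 0, DESeq2 60, the likelihood ratio test 40, and the main test without control replicate 5 called 4. At an unadjusted p-value under 0.05 the main test had 575 genes higher and 578 lower, and limma-voom 459 and 766. The number of the 9 genes with an unadjusted p-value under 0.05 was 4, and omitting single *Hif1aCKO* libraries gave 2 to 5, with 2 without replicate 4. For the other pathway genes this number was 7, and omitting single *Hif1aCKO* libraries gave 3 to 10, with 3 without replicate 4. Without control replicate 6, with 1 control left, both numbers were lower, as was that over all genes tested. With the longest transcript as length, 4 of 9 genes kept their rank. Of 125 values of single genes under the alternatives, 5 had the opposite sign, all of genes with a log2 fold change near 0: *Gch1* at 0.019 without control replicate 5 (-0.19 without control replicate 6) and 0.070 among the libraries with low *Xist*, and *Slc18a1* at -0.037 with the *Xist* class as a term, -0.041 without *Hif1aCKO* replicate 4 and -0.060 without *Hif1aCKO* replicate 5, against 0.13 without *Hif1aCKO* replicate 3. The cause of these differences was not tested. *Pnmt* could not be fitted with at least 10 counts in every library. Where 1 control was left, it was assumed to vary like the other libraries. Depth limits *Pnmt*, *Slc6a4* and the receptors, whose values rest on few reads.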
